A study of Homo sapiens with 4 samples.

Results

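The genes described here, 10 in all, encode enzymes that make serine, move its carbon units through folate in the cytosol and the mitochondrion, and make asparagine. They are PHGDH, PSAT1 and PSPH (serine synthesis), SHMT1 and MTHFD1 (cytosolic folate), SHMT2, MTHFD2, MTHFD1L and ALDH1L2 (mitochondrial folate) and ASNS (asparagine synthesis). They were chosen by gene symbol, with earlier results of these data known, and each was found among the 58736 features listed for each library. RNA was sequenced in 4 libraries of HEK293A cells, a long-established line of human embryonic kidney epithelium. Every well received 1 µg of plasmid for FEN1, a structure-specific nuclease that cuts DNA flaps, and 500 pmol of DNA probes 48 h later, per the labels' protocols. RNA collection is listed at 72 h for every library. Wells of the negative control (replicates 1 and 3) were set against wells treated with NT1_hp2 (replicates 2 and 3), so both groups had FEN1 plasmid and transfection, and the study asked how hairpin-forming probes that guide FEN1 affect gene regulation. The sources used here do not give the target of NT1_hp2 or the sequence of the control probe. The labels do not state separate cultures for the replicates. The p-values therefore refer to the spread among these libraries, possibly technical only. Bulk RNA cannot tell fewer cells of a kind from less RNA per cell.

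As background, serine is built from a phosphorylated glycolytic intermediate by PHGDH, then PSAT1, then PSPH. The hydroxymethyltransferases SHMT1, in the cytosol, and SHMT2, in mitochondria, split serine into glycine and a carbon unit carried by folate. Mitochondrial enzymes oxidise that unit and release it as formate, which the cytosolic enzyme MTHFD1 reattaches to folate for purine and thymidylate synthesis. Several of these genes, and ASNS, which amidates aspartate with nitrogen from glutamine, are known targets of ATF4, a transcription factor translated when amino acids are short.

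The deposited values were FPKM, reads scaled to exon length and library size, and corresponded to 12506203 to 14908687 reads per library. The share of reads from mitochondrially encoded genes was 5.92% to 6.06% in control libraries against 4.29% to 4.33% with NT1_hp2. KRT8, KRT18, VIM and CDH2, expressed by HEK293 cells, were at 14.6 FPKM or more in every library, while PAX2 and EPCAM were at most 0.542 and 0.447 FPKM. KRT18 was lower in NT1_hp2, at 54.4 and 55.4 FPKM against 77.7 and 68.8 (adjusted p = 0.044 in limma-trend), and its part in the results was not tested. Of 6 markers of other cell types, PTPRC and CD3E were listed at 0 in all 4 libraries, PECAM1 and ALB reached at most 0.0545 and 0.104 FPKM, and the muscle genes MYOD1 and DES reached 2.52 and 1.41 FPKM.

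PSAT1, MTHFD2, MTHFD1L, ALDH1L2 and ASNS had higher mRNA levels in NT1_hp2, and no enzyme gene passed the test in the lower direction. In fold of mean FPKM, the increases were 1.60 for PSAT1, 1.45 for MTHFD1L, 1.84 for MTHFD2, 1.96 for ALDH1L2 and 3.09 for ASNS. By arm, 1 of 3 serine synthesis genes, 0 of 2 cytosolic folate genes, 3 of 4 mitochondrial folate genes and ASNS rose. A gene was called below an adjusted p of 0.05 in limma-trend on log2(FPKM + 1), fitted to the 16362 genes that reached 1 FPKM in 2 or more libraries. Over those genes 5.00% were called higher and 8.92% lower. Of the enzyme genes, 9 were above that minimum in all 4 libraries, and 4 of these 9 rose, where 5.29% of all genes above it in every library were called higher and 10.3% lower. Because the enzyme genes were chosen with earlier results of these data known, the shares are a description and not a test of the set. ASNS entered the test only through the NT1_hp2 libraries and had to differ to be tested, so it adds nothing to the count. The median log2 fold change was 0.14 over the 9, or 0.31 with ASNS, beside −0.01 over all tested genes.

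**Figure D1:**
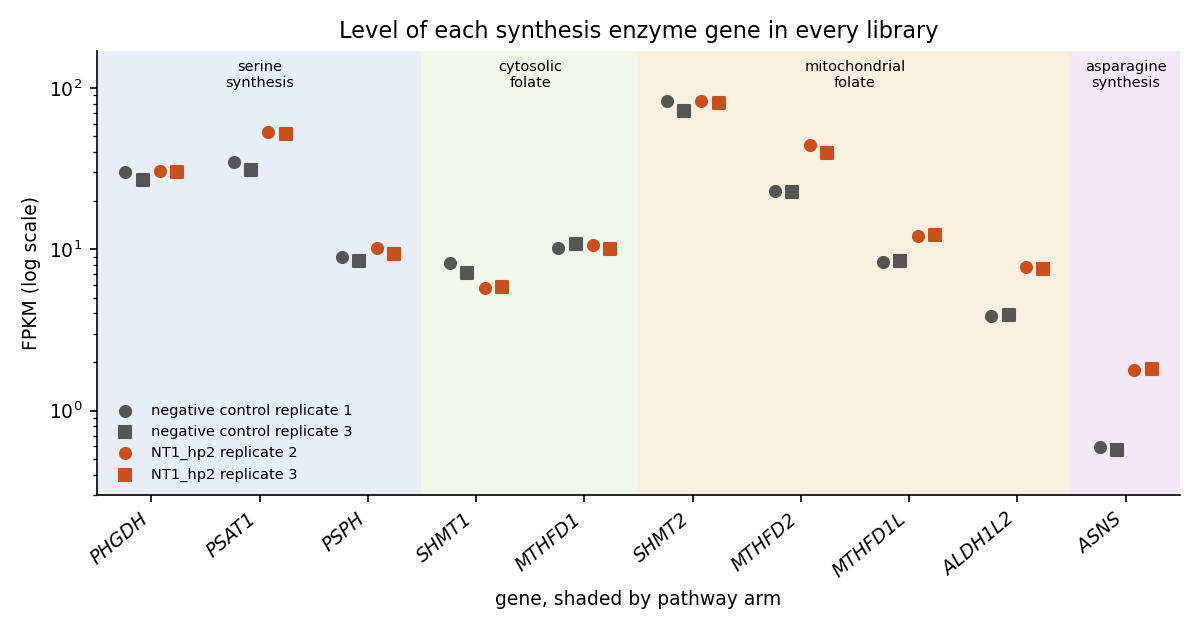
FPKM (log scale) of each of the 10 enzyme genes, with 1 point per library, grey for negative control and orange for NT1_hp2, shaded by pathway arm. PSAT1, MTHFD2, MTHFD1L, ALDH1L2 and ASNS have both orange points above both grey ones, while those of PHGDH, MTHFD1 and SHMT2 overlap.

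Of the 9 genes above the minimum in every library, 6 had groups whose libraries did not overlap, close to the 66.8% among all tested genes. Both NT1_hp2 libraries lay above both controls for PSAT1, PSPH, MTHFD2, MTHFD1L and ALDH1L2 (32.0% of all tested genes) and below them for SHMT1 alone (34.8%).

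Within serine synthesis the middle step moved and the first did not pass the test. PSAT1 (ENSG00000135069, chromosome 9, 78297143 to 78330093, GRCh38, plus strand), the phosphoserine aminotransferase, was at 34.7 and 31.1 FPKM in negative control replicates 1 and 3 and at 53.2 and 51.8 FPKM in NT1_hp2 replicates 2 and 3. Its mean went from 32.9 ± 2.56 to 52.5 ± 1.02 FPKM (SD, n = 2 each), which is 0.66 on the log2 scale (SE 0.078, adjusted p = 0.0340 in limma-trend). The gap between the groups was several times the gap between the libraries of either. PHGDH (chromosome 1, 119648411 to 119744226), the dehydrogenase that commits carbon to serine, was at 30.1 and 27.0 FPKM in the control and at 30.5 and 30.0 FPKM in NT1_hp2. Its groups overlapped, and the 95% interval of its log2 difference ran from −0.12 to 0.28, below that of PSAT1 (0.46 to 0.86). PSPH (chromosome 7, 56011051 to 56051604), the phosphatase of the last step, was at 8.95 and 8.47 FPKM in the control against 10.2 and 9.28 FPKM. Its log2 difference of 0.14 (95% interval −0.06 to 0.34) did not pass (limma-trend adjusted p = 0.243).

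The 2 cytosolic folate genes did not rise. MTHFD1 (chromosome 14, 64388031 to 64463457) was at 10.2 and 10.7 FPKM in the control and at 10.7 and 10.0 FPKM in NT1_hp2, with a log2 difference of −0.01 (95% interval −0.20 to 0.17) whose sign depended on the scaling. SHMT1 (chromosome 17, 18327860 to 18363563) was at 8.26 and 7.12 FPKM in the control and at 5.73 and 5.85 FPKM in NT1_hp2. Both NT1_hp2 libraries were below both controls, a mean of 5.79 ± 0.0882 against 7.69 ± 0.809 FPKM (SD, n = 2 each). The log2 difference of −0.35 (SE 0.091) missed the threshold (limma-trend adjusted p = 0.0622), and it passed with limma-voom on recovered reads (0.00103), among protein-coding genes alone (0.0105) and among genes with 1 FPKM in all 4 libraries (0.0374).

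Mitochondrial folate genes split by step. MTHFD2 (ENSG00000065911, chromosome 2, 74198562 to 74217565, plus strand), the dehydrogenase and cyclohydrolase that oxidises the carbon unit, was at 22.9 and 22.8 FPKM in the control and at 44.4 and 39.7 FPKM in NT1_hp2. The control libraries differed by 0.483% of their mean and the NT1_hp2 libraries by 11.1%, both small beside a rise of 0.85 on the log2 scale (SE 0.077, limma-trend adjusted p = 0.0340). MTHFD1L (chromosome 6, 150865549 to 151101887), the synthetase that releases formate, was at 8.31 and 8.50 FPKM in the control and at 12.1 and 12.2 FPKM in NT1_hp2, a log2 fold change of 0.48 (SE 0.063). ALDH1L2 (chromosome 12, 105019784 to 105084577), the dehydrogenase that oxidises formyl-folate to carbon dioxide and makes NADPH, was at 3.85 and 3.91 FPKM in the control and at 7.72 and 7.51 FPKM in NT1_hp2. Its log2 fold change was 0.82 (SE 0.072), and the limma-trend adjusted p was 0.0340 for each of these genes. SHMT2 (chromosome 12, 57229327 to 57234935), which supplies the pathway with carbon from serine, had the highest FPKM of the enzyme genes and overlapped between groups. It was at 82.7 and 72.3 FPKM in the control and at 83.4 and 80.5 FPKM in NT1_hp2, with a log2 difference of 0.08 (95% interval −0.15 to 0.31), or 0.29 without passing after removal of length and GC trends (limma-trend adjusted p = 0.0761). The first interval lies below those of MTHFD2 (0.65 to 1.05) and ALDH1L2 (0.63 to 1.01) and just below that of MTHFD1L (0.32 to 0.65).

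**Figure D2:**
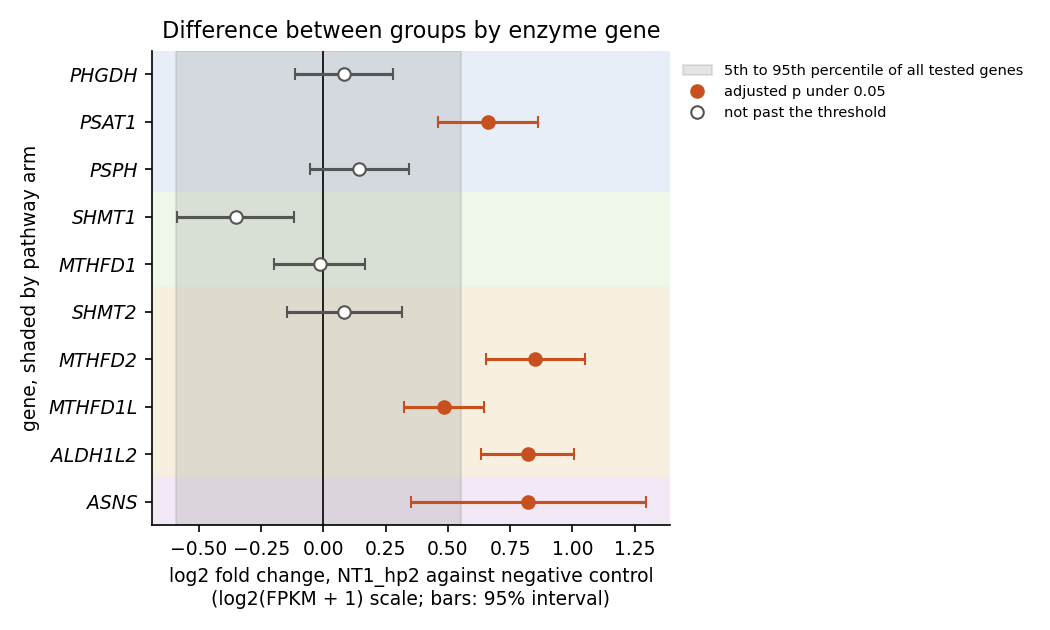
Log2 fold change of each enzyme gene, NT1_hp2 against negative control, on the log2(FPKM + 1) scale with 95% intervals of the moderated fit; filled orange points passed the test, and the grey band spans the 5th to 95th percentile of all tested genes. MTHFD2, ALDH1L2, ASNS and PSAT1 lie to the right of the band, whose upper edge is 0.55. ASNS entered the test only through its NT1_hp2 libraries.

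ASNS, asparagine synthetase (ENSG00000070669, chromosome 7, 97852118 to 97872542, minus strand), was at 0.592 and 0.572 FPKM in the control and at 1.80 FPKM in both NT1_hp2 libraries. These values rest on 38 and 32 reads against 113 and 114 reads. Scaled to library size, the read ratio was 3.09 (95% exact binomial interval 2.35 to 4.10, counting error only). On the log2(FPKM + 1) scale, which understates changes at this level, the difference was 0.82 (SE 0.18, limma-trend adjusted p = 0.0491), and with a pseudocount of 0.1 it was 1.48 without passing (adjusted p = 0.0558). The call was also lost with median-of-ratios scaling (0.0504) and after removal of length and GC trends (0.0748), always with the same direction. Only the NT1_hp2 libraries reached the minimum for the test, so ASNS had to differ to be tested and its adjusted p carries little weight.

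The low level of ASNS comes with an annotation overlap. On its own strand, 1985 of its 4455 exon bases also belong to exons of AC079781.5, annotated as a processed transcript, and they include 96.1% of its coding length. Of its 1752 coding bases, 69 belong to ASNS alone. In these tables, 225 of 225 single-exon features lying wholly inside an exon of another gene of at least 10 FPKM on the same strand were listed at 0 in all 4 libraries, as were 47 of 47 inside such an exon on the opposite strand, although the level of the surrounding gene would give each at least 10 reads. Whether the surrounding genes kept those reads, and how reads in the stretches shared by ASNS and AC079781.5 were counted, was not tested. The level of ASNS is therefore given as listed, and its place below the other genes is not read as low expression. AC079781.5 itself was at 0.129 and 0.185 FPKM in the control and at 0.231 and 0.426 FPKM in NT1_hp2.

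**Figure D3:**
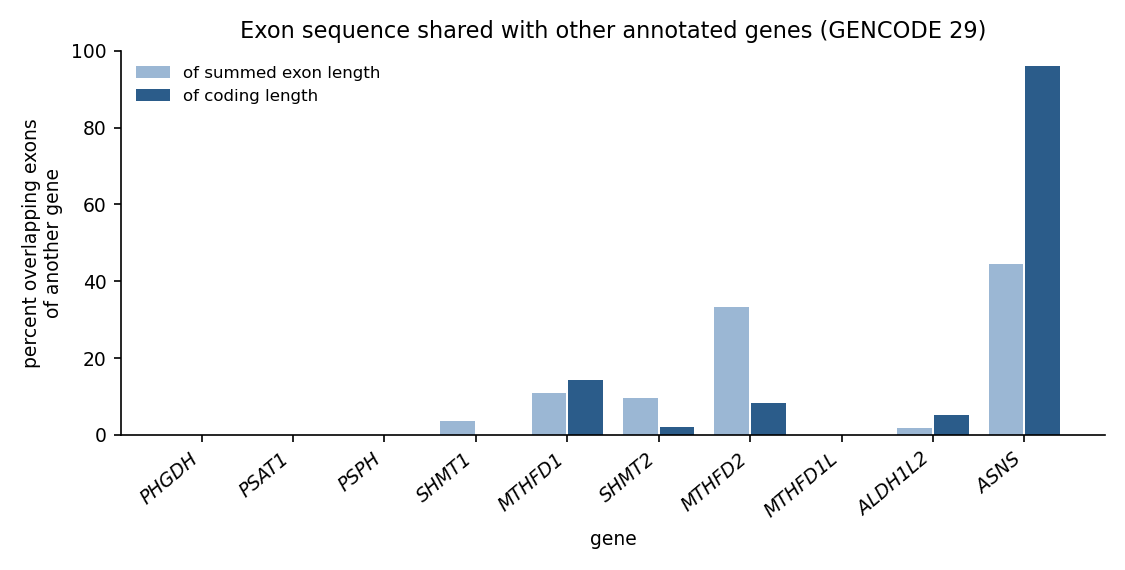
Percent of the summed exon length (light) and of the coding length (dark) of each enzyme gene that overlaps exons of any other gene in GENCODE 29, on either strand. ASNS stands at 96.1% of coding length; MTHFD2 shares 33.2% of its exon length and 8.29% of its coding length.

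Other overlaps were smaller. MTHFD2 shares 1324 exon bases with SLC4A5 on the opposite strand, and SLC4A5 was at most 0.591 FPKM. How reads in these shared bases were counted was not tested. If all reads of MTHFD2 came from its unshared exon bases, its mean per kilobase would be 34.2 in the control and 63.0 in NT1_hp2. The listed means were 22.8 and 42.0 FPKM, so its place among the enzyme genes holds for FPKM as listed. MTHFD1 shares 11.0% and SHMT2 9.51% of exon length, while PHGDH, PSAT1, PSPH and MTHFD1L share none. Of 18 annotated pseudogene copies of the enzyme genes, 6 had a value above 0 in any library and the highest was 0.484 FPKM (MTHFD1P1). The others above 0 were SHMT1P1, MTHFD2P6, MTHFD2P7, ASNSP3 and ASNSP6, and none reached the minimum for the test.

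By FPKM the order in the control was SHMT2, PSAT1, PHGDH, MTHFD2, MTHFD1, PSPH, MTHFD1L, SHMT1, ALDH1L2 and ASNS. Neighbours in this order did not overlap except PSPH and MTHFD1L. By FPKM in NT1_hp2, MTHFD2 passed PHGDH, MTHFD1L passed MTHFD1 and PSPH, and ALDH1L2 passed SHMT1, and only MTHFD1 and PSPH overlapped. The scale matters for this order, since FPKM divides by the summed length of all annotated exons, 9217 bases for PHGDH and 2188 for PSAT1. Per kilobase of its longest principal transcript (2585 bases), the mean control level of PHGDH was 102 instead of 28.6, above PSAT1, whose 32.9 stayed as it was. On the same scale in NT1_hp2, PHGDH stayed above MTHFD2 (means of 108 and 45.9) and SHMT1 above ALDH1L2 (17.1 and 8.58). The passing of PHGDH by MTHFD2 and of SHMT1 by ALDH1L2 was therefore seen in FPKM only. No such length was taken for SHMT2 (77.5 FPKM in the control), so its place relative to PHGDH holds for FPKM only. None was taken for MTHFD1L either, so its passing of MTHFD1 and PSPH also holds for FPKM only. Fold changes in FPKM do not depend on this length.

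Ratios between genes in the same library do not depend on the scaling between libraries. Their absolute size does depend on the exon lengths used in FPKM, 9377 bases for MTHFD1 against 3136 in its principal transcript. The fold between groups does not depend on these lengths. MTHFD2 relative to its cytosolic counterpart MTHFD1 was 2.24 and 2.12 in the control and 4.15 and 3.96 in NT1_hp2. This mRNA ratio was 1.86-fold higher in NT1_hp2, with no overlap between groups. SHMT2 to SHMT1 went from 10.0 and 10.2 to 14.6 and 13.8, where the numerator overlapped between groups and the denominator was lower in NT1_hp2. MTHFD1L to MTHFD1 went from 0.816 and 0.791 to 1.13 and 1.22. PSAT1 to PHGDH, successive steps of serine synthesis, was 1.15 in both control libraries and 1.74 and 1.73 in NT1_hp2. ASNS to NARS, the asparaginyl-tRNA synthetase, went from 0.0135 and 0.0147 to 0.0397 and 0.0402. In all 5 pairs both NT1_hp2 ratios exceeded both control ratios, and the exact two-sided permutation p was 0.333 for each, the smallest that 2 libraries against 2 allow (0.333 after adjustment over the 5 pairs). Of single tested genes, 32.0% had both NT1_hp2 libraries above both controls, and no such share was computed for other pairs. The numerators MTHFD2, MTHFD1L, PSAT1 and ASNS had already been called higher, and MTHFD1 serves more than 1 pair, so this count adds little.

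**Figure D4:**
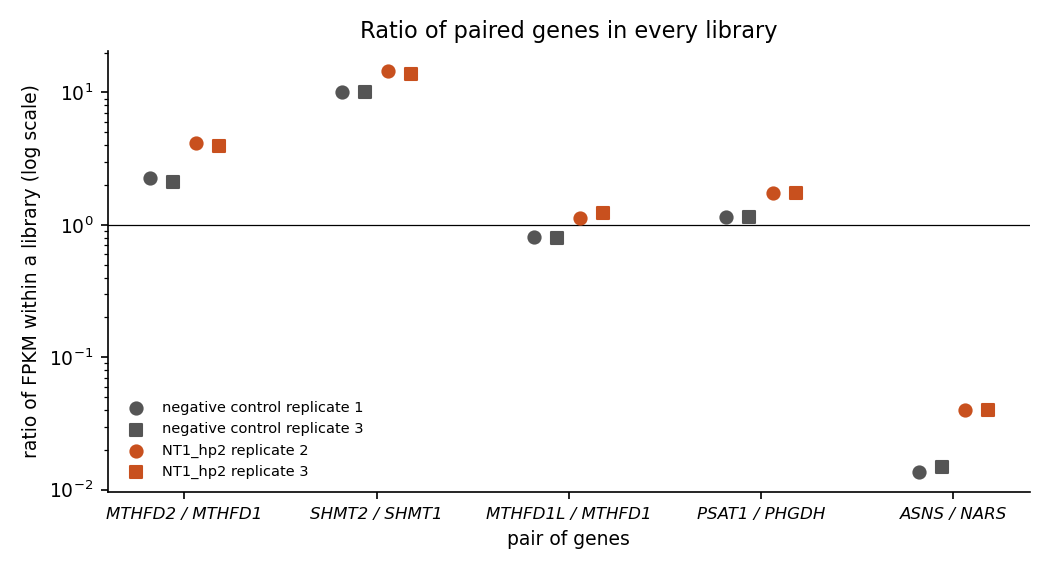
Ratio of FPKM of 2 genes within each library (log scale), 1 point per library, grey for negative control and orange for NT1_hp2. In each of the 5 pairs the orange points lie above the grey ones. MTHFD1L to MTHFD1 goes from below 1 to above 1 in FPKM, and where a ratio lies against 1 depends on the exon lengths used.

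The start-site regions of 7 enzyme genes (250 bases before to 50 after each start, 11 windows, RefSeq, GRCh38.p14) were searched on both strands for TGATGNAA, letters of the element bound by ATF4 with C/EBP proteins, and for CACGTG, the E-box bound by MYC among others. PSPH, SHMT2 and ALDH1L2 had no window and were not searched. TGATGNAA was found for ASNS and for MTHFD1L, where 3 overlapping windows hold the same site. It was not found in the windows of PSAT1 and MTHFD2, which rose, or of PHGDH, SHMT1 and MTHFD1, which did not. The genes with a match are 2 of 7, beside 4.46% of all genes with a window. CACGTG was found for MTHFD1L and MTHFD1, also 2 of 7, beside 8.77% of all genes. A match is a description of the letters, and no binding was measured. The matched stretches are shown with the motif in capitals, 5′ to 3′ on the strand of the gene.
ASNS (chr7:97872458-97872487, first motif base 68 bases before the start): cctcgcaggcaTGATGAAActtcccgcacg
MTHFD1L (chr6:150866346-150866375): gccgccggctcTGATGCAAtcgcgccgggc
MTHFD1L (chr6:150866321-150866348): acgcccggctcCACGTGcgcagccggcc
MTHFD1 (chr14:64388327-64388354, first motif base 15 bases before the start): cagtccctaagCACGTGggttgggttgt
In MTHFD1L the TGATGCAA and the CACGTG lie within the same promoter, with the E-box upstream, and they fall at different distances from its alternative starts (TGATGCAA begins 129 and 90 bases before 2 of them, and after the third).

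Of 56 other genes of the same pathways, in 5 lists, 48 were tested, of which 1 rose and 4 fell, with a median log2 fold change of −0.03. Over all tested genes 5.00% were called higher and 8.92% lower, so the fallen genes were close to the overall share, and the counts of the single lists are too small to be read against it. Among 14 tested genes of folate interconversion, uptake and retention, 0 rose and 2 fell. Thymidylate synthase TYMS, which consumes methylene-folate, went from 18.2 and 17.9 to 12.8 and 12.3 FPKM, a fall of 0.49 on the log2 scale (limma-trend adjusted p = 0.0340), in a gene that shares 52.1% of its coding length with other genes. Both NT1_hp2 values of TYMS lay below both control values. MTHFD2L, the mitochondrial relative of MTHFD2, was at 1.01 and 0.940 against 1.20 and 1.11 FPKM without passing (0.13).

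Among 12 tested genes of glycine cleavage and serine use only SARS, the seryl-tRNA synthetase, rose, from 51.3 and 48.5 to 66.7 and 61.3 FPKM (0.35, limma-trend adjusted p = 0.0477). The mitochondrial serine carrier SFXN1 was at 0.17 and the glycine decarboxylase GLDC at −0.08 on the log2 scale, neither past the threshold. Of 8 tested methionine cycle and transsulfuration genes 1 fell, MAT2A, which makes S-adenosylmethionine, from 57.2 and 55.0 to 40.7 and 40.5 FPKM (−0.46, adjusted p = 0.0340). Of 6 genes of purine synthesis 1 fell, PFAS, from 8.96 and 8.30 to 5.06 and 6.07 FPKM (−0.56, adjusted p = 0.0396), while the formyl-folate users GART (−0.04) and ATIC (−0.13) did not pass. None of 8 tested genes of asparagine use and of aspartate and glutamine supply passed. The glutamine synthetase GLUL was at −0.30 on the log2 scale (adjusted p = 0.0539 in limma-trend).

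**Figure D5:**
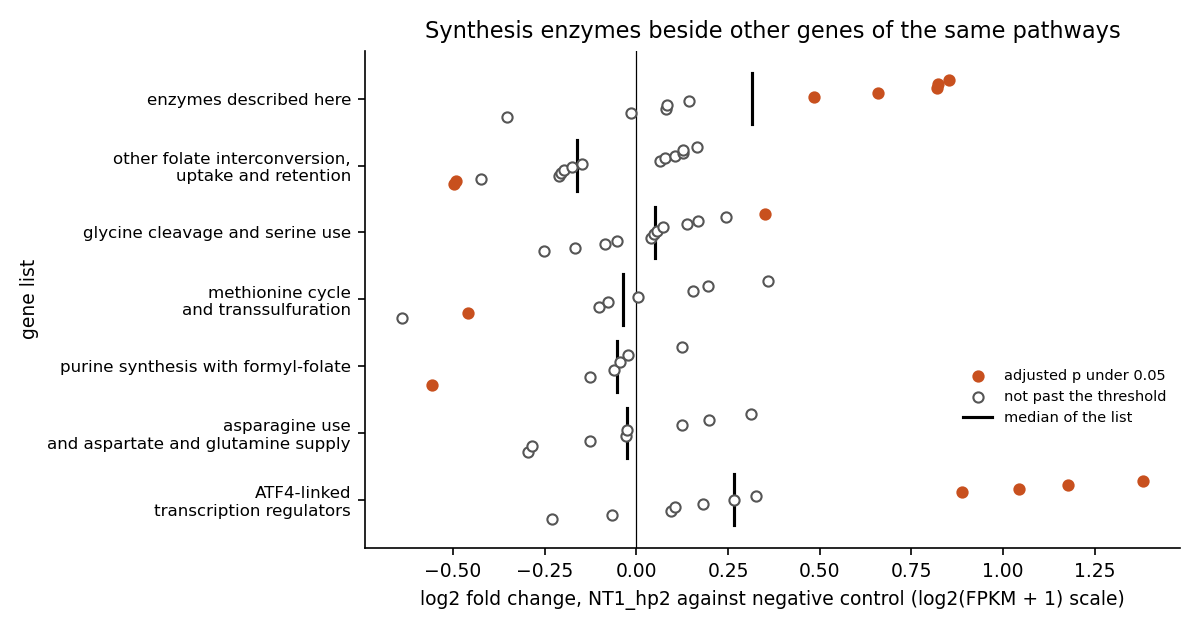
Log2 fold change (log2(FPKM + 1) scale) of the 10 enzyme genes and of the tested genes of 6 other lists, 1 point per gene, orange where the adjusted p was under 0.05, with the median of each list as a black line. Among the genes drawn, every point to the right of 0.5 is an enzyme gene described here or a regulator linked to ATF4. The lists were chosen with earlier results of these data known, and the 95th percentile of all tested genes was 0.55.

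Regulators linked to ATF4 included 4 of 11 tested genes that rose and 0 that fell, with a median of 0.27, beside 5.00% called higher and 8.92% lower over all tested genes. They were ATF3 (log2 fold change 1.38), DDIT3 (1.18), TRIB3 (1.04) and CEBPG (0.89). The other 7 tested regulators were not called: CEBPB (0.33), ATF5 (0.27), SESN2 (0.18), EIF2AK4 (0.11), PPP1R15A (0.094), CHAC1 (−0.065) and ATF4. NUPR1 did not reach the minimum for the test. This list was also chosen with earlier results of these data known. CEBPG, a partner of ATF4 on DNA, went from 18.8 and 18.9 to 36.3 and 35.0 FPKM. ATF4 mRNA was at 185 and 157 FPKM in the control and at 147 and 144 FPKM in NT1_hp2, lower in both NT1_hp2 libraries without passing (−0.23, limma-trend adjusted p = 0.172). The ATF4 protein was not measured.

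Likeness of pattern was measured as the Euclidean distance between log2(FPKM + 1) values centred on their mean over the 4 libraries, among tested genes of at least 5 FPKM. Nearest to ASNS were ALDH1L2 (distance 0.0382), CEBPG (0.0768) and IARS, the isoleucyl-tRNA synthetase (0.0839), out of 8479 genes. Nearest to MTHFD2 were P4HA1, a collagen prolyl hydroxylase (0.0571), CEBPG (0.0830) and ALDH1L2 (0.0939). The likeness of ALDH1L2 to ASNS depends on the pseudocount: with 0.1 in place of 1 the log2 difference was 1.48 for ASNS and 0.96 for ALDH1L2. With 4 libraries in 2 groups this measure mostly ranks genes by the size of their group difference.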

How the data were processed

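The authors deposited 1 table per library with a value per gene, taken as FPKM because the values times the summed exon length in GENCODE 29 were whole multiples of 1 step per library (100% within 0.01), which recovered the reads. The submitters' processing notes name GRCh38.p12; for the aligner and counter: not given in the sources used here. The implied library size was 0.966 to 1.04 times the recovered total. The kit (NEBNext Ultra) does not mark strand. No files were identical, and replicate pairs differed by more than sampling noise (chi-square per degree of freedom 5.68 and 2.69). Groups came from sample titles. Genes reaching 1 FPKM in 2 or more libraries were fitted with limma 3.58.1 (trend, robust) in R 4.3.3 on log2(FPKM + 1), with Benjamini-Hochberg adjustment over all 16362. The fit was also run on simulated reads with 200 changed genes and no length or GC trend between libraries. That run does not show how the fit behaves on these libraries. Members and lists were chosen with earlier results of these data known. Named genes are the members, up to 4 called genes per list with the smallest p or 2 where none was called, ATF4, DDIT3, copies above 0, and the 3 nearest patterns of ASNS and MTHFD2. MTHFD2L, SFXN1, GLDC, GART, ATIC and, apart from ATF4, the regulators that were not called or not tested were added after values were seen. A few genes covered by this rule are left unreported.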

Additional observations from a re-analysis of the deposited data

How the results depend on the processing

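No paired analysis was possible because the groups share only replicate number 3. PSAT1, MTHFD2, MTHFD1L and ALDH1L2 passed under 9 of 14 alternatives each and were positive under all 14. The exceptions were the fit with no filter, where 0 enzyme genes and 0 and 0 other pathway genes passed (131 genes in all, 4836 at an unadjusted p under 0.05), and the omission of any 1 library. Without 1 library the enzyme genes called higher were 0 to 0, and the pathway genes called were 0 to 0 in either direction, but 0, 0, 0 and 1 of all genes passed, so those fits say nothing on stability; 4 to 7 enzyme genes had an unadjusted p under 0.05 there. The log2 fold changes ranged over these omissions from 0.58 to 0.74 for PSAT1, 0.77 to 0.93 for MTHFD2, 0.47 to 0.50 for MTHFD1L, 0.80 to 0.84 for ALDH1L2 and 0.81 to 0.83 for ASNS. SHMT1 made 1 enzyme gene lower with limma-voom, with protein-coding genes only and with 1 FPKM in all 4 libraries. MTHFD1 changed sign with library totals (0.056), and without 1 library it ranged from −0.056 to 0.026, positive without negative control replicate 3 or NT1_hp2 replicate 3. SHMT2 ranged from −0.013 to 0.18, negative without negative control replicate 3, and was at 0.29 after length and GC trends were removed. None of these values passed the threshold. Other pathway genes called higher were 0 with median-of-ratios scaling, 2 with library totals, protein-coding genes only or 1 FPKM in all 4 libraries, and 3 with limma-voom; called lower were 8 with limma-voom or protein-coding genes only, and 1 after length and GC trends were removed (mgcv 1.9.3, added after seeing the data), when 4 enzyme genes rose. These counts go with the shares of all tested genes called higher and lower, 14.4% and 19.9% with limma-voom, 14.6% and 24.2% with protein-coding genes only, 9.87% and 16.3% with 1 FPKM in all 4 libraries, 9.34% and 8.09% with library totals, and 0.722% and 1.08% after the trends were removed (118 and 177 genes). The cause was not tested. The 5 ratios kept their direction with a pseudocount of 0.1; without 1 library no change of direction was possible. Depth limits ASNS most, with 70 reads in the control.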

Other observations

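Exon sharing also bears on other genes of these pathways. AMT, the aminomethyltransferase of glycine cleavage, shares 100% of its coding length with other genes and was at most 0.110 FPKM. GCSH shares 72.1% and was at 1.88 to 2.18 FPKM, and the purine enzyme ADSL shares 68.8% and was at 0.807 to 1.05 FPKM. DDIT3 shares 33.5% of its coding length. How reads in their shared stretches were counted was not tested. They were chosen after their values were seen.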
